A study of Mus musculus with 12 samples.

Results

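The genes examined are 43 members of the bone morphogenetic protein (BMP) and transforming growth factor beta (TGF-beta) pathway, grouped as 10 ligands, 9 antagonists and extracellular modulators, 10 receptors, 4 latent binding proteins, 5 Smad proteins and 5 targets. They were taken as a list of named genes, and all of their probes on the array were read. Of the 43 genes, 40 had a probe (66 probes in all), and 34 passed the filter on dim probes and were tested among 8420 genes of the whole array. The other members with a probe, Bmp2, Bmp7, Chrdl1, Bmpr2, Acvr2a and Bambi, were above background on 0 of 12 arrays, so only an upper bound is known for their level. The expression of Gdf15, Fstl3 and Smad7 was not analysed here.

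The study hybridised RNA of primary MEFs (mouse embryonic fibroblasts, connective-tissue cells explanted here from C57BL6/J E15.5 embryos) to 12 Illumina bead arrays. Control cells were Cry1+/-Cry2+/- according to the sample labels, although the series text speaks of wild type, and the other cells carried the double knockout of Cry1 and Cry2 (dKO). Cry1 and Cry2 encode the cryptochromes, repressors within the circadian clock. Each genotype received the synthetic glucocorticoid dexamethasone (Dex) at 1 µM, or ethanol (EtOH) as its solvent, for 16 hours, with 3 arrays labelled as biological replicates in each of the 4 groups. The labels do not say whether replicates came from separate embryos or cultures, so p-values measure the spread between these samples only. A difference between genotypes therefore cannot be told apart from a difference between cell preparations.

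BMPs, activins and TGF-betas are secreted dimers that bind pairs of type I and type II serine/threonine kinase receptors. The activated receptors phosphorylate Smad proteins, Smad1 and Smad5 mainly for BMPs and Smad3 for TGF-betas and activins, which enter the nucleus with Smad4 and regulate genes such as the Id family. Outside the cell, noggin, chordin, gremlin and follistatin sequester ligands, and latent TGF-beta binding proteins hold TGF-beta inactive in the matrix. In fibroblasts the pathway is best known for its control of matrix synthesis and of differentiation towards cartilage and bone.

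Between 10953 and 11527 of 25697 probes were above background on each array (detection p under 0.01), and the number of arrays limits the precision of every value below. The single Cry1 probe was above background on 0 arrays, and the Cry2 probe, at 5.90 to 6.49 in control EtOH and 6.38 to 6.81 in dKO EtOH, was not lower in the dKO. Neither probe therefore checks the deletion. Per2, a clock gene repressed by cryptochromes, read 7.05 to 7.29 in control EtOH and 9.87 to 10.16 in dKO EtOH on 1 of its 3 probes. Another read 7.44 to 7.67 and 9.25 to 9.72, and the third was above background on 0 arrays. Of 12 fibroblast markers 12 were detected, although Postn was at background in both control groups. On the third principal component (14.9% of the variance) 3 arrays stood apart from the others of their groups, namely control Dex replicate 3, dKO EtOH replicate 1 and dKO EtOH replicate 2. Results of the members are therefore also given without these 3 arrays where their call changed or a called value moved by over 1.5 times. Then dKO EtOH is represented by its replicate 3 alone, whose spread is assumed to be that of the other groups. The further pathway genes and the markers were examined on all arrays only.

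Levels below are background-corrected, quantile-normalized signals on a log2 scale, and changes are differences of group means (log2) ± SE with n = 3 arrays per group. A gene was called changed when limma's adjusted p was under 0.05. The level of 1 gene cannot be set against that of another, because each probe has its own brightness. The comparisons share groups of arrays and are not independent of each other.

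Dex changed 9 of the 34 tested members in control cells (26.5%), with 6 higher and 3 lower. Among all genes tested 20.3% were called, 8.85% higher and 11.4% lower. In dKO cells Dex changed 8 members (23.5%), 5 higher and 3 lower, against 14.6% of all genes (8.62% higher and 5.99% lower). Between genotypes, 10 members differed in EtOH (29.4%), 4 higher and 6 lower in the dKO, against 26.6% of all genes (10.7% higher and 15.8% lower). Under Dex 13 members differed (38.2%), 6 higher and 7 lower in the dKO, against 19.7% of all genes (9.89% higher and 9.81% lower). The Dex change itself differed between genotypes for 2 members, against 2.29% of all genes (1.28% with a greater and 1.01% with a lesser change in the dKO). The median change over the tested members was 0.01 for Dex in control, 0.15 for Dex in dKO, -0.13 for genotype in EtOH and 0.04 for genotype under Dex, and over all genes it was -0.04, 0.03, -0.05 and 0.01. In all, 19 members were called in at least 1 comparison and 15 in none.

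**Figure D1:**
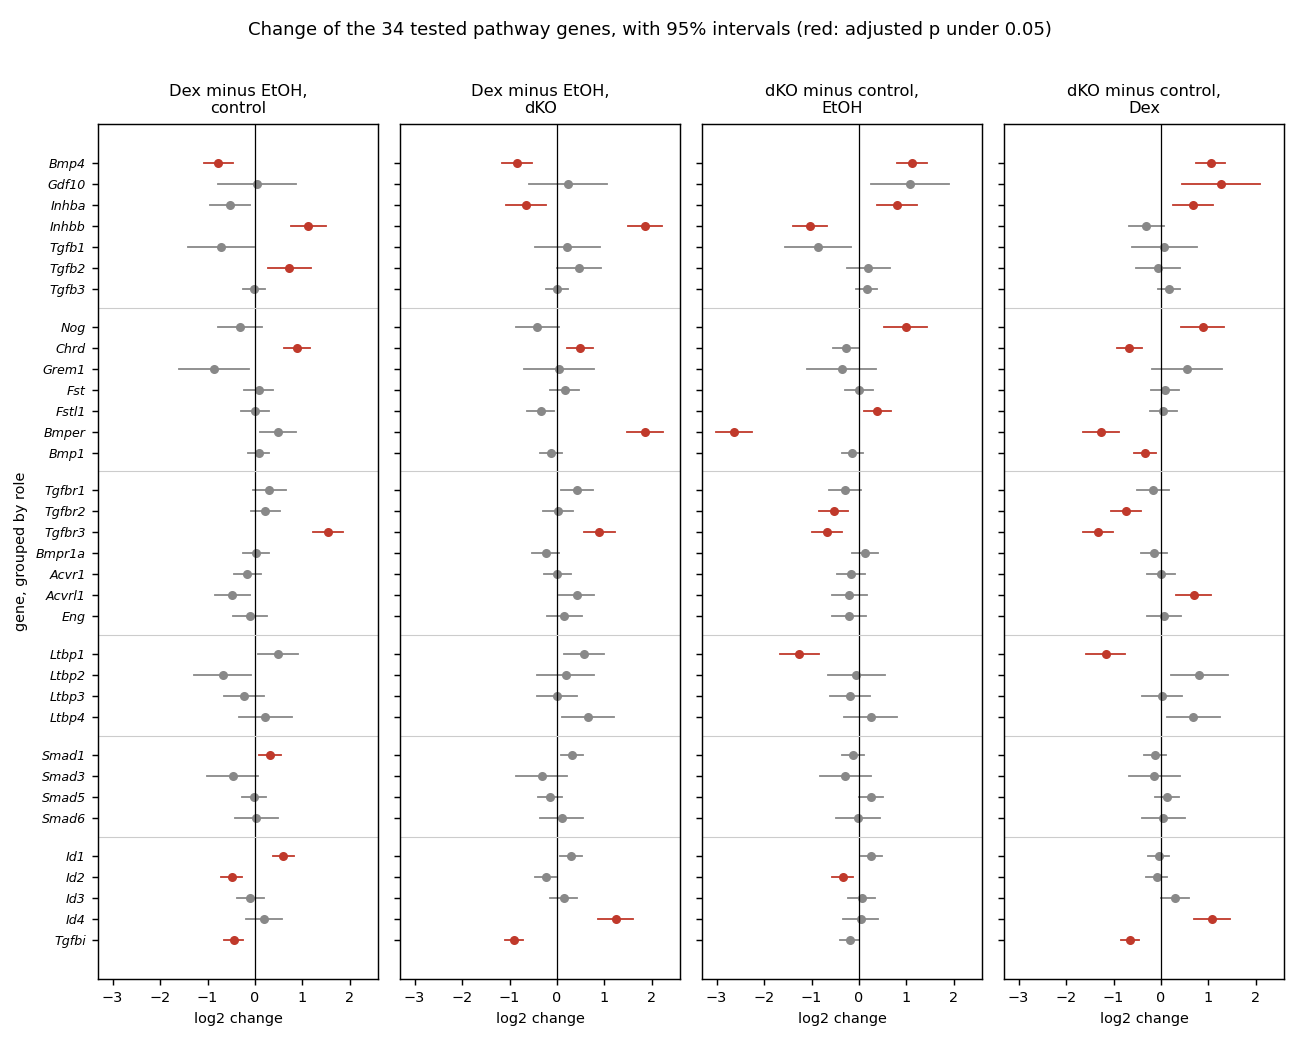
Change of each tested member (log2, point) with its 95% interval (bar) in the comparisons of treatment and of genotype, red where the adjusted p was under 0.05. Inhbb, Bmper, Chrd, Tgfbr3 and Id4 lie to the right for Dex in at least 1 genotype, and Bmper lies farthest to the left for dKO against control in EtOH at -2.63.

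Upstream sequences of a few members are shown because they differ in short letter patterns linked to the factors of this experiment. Cryptochromes repress activators that bind the E-box CACGTG, the glucocorticoid receptor binds pairs of the half-site AGAACA, and BMP-activated Smads bind GC-rich elements such as GGCGCC. RefSeq (GRCm38.p6) gave a window of 300 bases, from 250 before to 50 after the transcript start, for 31 of the 43 members, and each pattern was searched on both strands. CACGTG was present in 7.15% of 32851 windows of all genes and in those of Bmp4, Gdf15 and Tgfb2. AGAACA was present in 19% of all windows and in those of Inhbb, Bmpr2, Fstl3 and Smad6, and the palindrome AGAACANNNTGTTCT, which contains that half-site, in 0.00913% and in that of no member. GGCGCC was present in 11.9% of all windows and in at least 1 window of 11 of the 31 members, Id4 among them. A member with several windows was counted once, so the members' count is not a share of windows. The Smad palindrome GTCTAGAC was present in 0.213% of all windows and in that of Smad6. Capitals mark the matches in the windows of Bmp4 at chr14:46390620-46390919 (minus strand), Inhbb at chr1:119422199-119422498 (minus strand), Bmper at chr9:23222826-23223125 (plus strand) and Id4 at chr13:48260866-48261165 (plus strand), all written 5′ to 3′. Bmper is the member with the greatest change between genotypes, and its window holds none of these letters. With the first transcribed base as position 0, the match begins at -188 in Bmp4, 33 in Inhbb and -148 in Id4. A match is a description of the sequence and not a binding site, and its absence says only that the letters are not in this window.
Bmp4: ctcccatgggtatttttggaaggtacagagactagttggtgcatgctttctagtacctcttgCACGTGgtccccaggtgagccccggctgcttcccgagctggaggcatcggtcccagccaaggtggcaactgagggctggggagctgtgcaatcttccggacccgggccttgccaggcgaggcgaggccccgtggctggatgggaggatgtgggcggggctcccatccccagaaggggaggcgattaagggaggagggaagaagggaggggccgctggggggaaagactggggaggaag
Inhbb: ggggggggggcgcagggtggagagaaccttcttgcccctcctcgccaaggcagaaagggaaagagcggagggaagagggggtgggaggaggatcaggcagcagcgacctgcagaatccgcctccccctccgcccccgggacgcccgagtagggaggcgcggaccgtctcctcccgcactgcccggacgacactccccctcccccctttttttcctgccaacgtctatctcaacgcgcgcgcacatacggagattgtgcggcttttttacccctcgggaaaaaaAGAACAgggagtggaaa
Bmper: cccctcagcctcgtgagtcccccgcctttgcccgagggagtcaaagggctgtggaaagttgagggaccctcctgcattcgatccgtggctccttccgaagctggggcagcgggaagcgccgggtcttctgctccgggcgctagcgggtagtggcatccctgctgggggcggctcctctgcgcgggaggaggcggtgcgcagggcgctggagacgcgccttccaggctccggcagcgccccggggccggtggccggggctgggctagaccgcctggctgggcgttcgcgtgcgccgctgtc
Id4: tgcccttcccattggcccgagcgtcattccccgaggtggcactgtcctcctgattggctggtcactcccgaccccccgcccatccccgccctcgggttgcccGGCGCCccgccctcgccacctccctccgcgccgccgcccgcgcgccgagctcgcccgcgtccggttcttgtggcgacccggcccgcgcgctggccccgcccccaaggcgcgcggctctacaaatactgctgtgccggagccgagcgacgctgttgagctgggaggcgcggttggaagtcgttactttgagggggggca

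Among the ligands, Bmp4 was lower after Dex in both genotypes and higher in the dKO under both treatments, and Inhbb, which encodes the activin B subunit, was higher after Dex in both genotypes. Of 10 ligands 7 were tested, and 3 (42.9%) were called in each comparison of treatment or genotype. Among all genes 20.3% were called for Dex in control, 14.6% for Dex in dKO, 26.6% for genotype in EtOH and 19.7% under Dex. Bmp4, a BMP that drives bone and mesoderm formation, read 10.22, 10.56 and 10.79 in control EtOH, 9.76, 9.67 and 9.83 in control Dex, 11.70, 11.80 and 11.41 in dKO EtOH, and 10.82, 10.80 and 10.78 in dKO Dex. Each Dex group lay below the EtOH group of its genotype, and each dKO group above the control group of its treatment. Dex lowered Bmp4 by a log2 change of -0.77 ± 0.14 in control (adjusted p = 0.00271) and -0.84 ± 0.14 in dKO (adjusted p = 0.00235). Bmp4 was 2.17-fold higher in the dKO in EtOH (1.11 ± 0.14, adjusted p = 0.000198) and 2.06-fold higher under Dex (1.04 ± 0.14, adjusted p = 0.000364). The 2 Dex changes of Bmp4 differed by -0.07 ± 0.20 (adjusted p = 0.861). Without the 3 arrays that stood apart, the Dex change in dKO was -0.61 (adjusted p = 0.0899).

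Inhba and Inhbb encode the beta A and beta B chains that form activins, or inhibins when joined to the alpha chain. Inhbb read 9.42, 9.17 and 9.52 in control EtOH, 10.93, 10.26 and 10.31 in control Dex, 8.22, 8.30 and 8.48 in dKO EtOH, and 10.15, 10.18 and 10.24 in dKO Dex. The lowest group was dKO EtOH, and the Dex groups of both genotypes lay close together. Inhbb rose 2.18-fold with Dex in control (1.13 ± 0.17, adjusted p = 0.000571) and 3.61-fold in dKO (1.85 ± 0.17, adjusted p = 1.76e-05). In EtOH it was 2.05-fold lower in the dKO (-1.03 ± 0.17, adjusted p = 0.000917), and under Dex the difference was -0.31 ± 0.17 (adjusted p = 0.227). The difference between the Dex changes, 0.73 ± 0.24, was not called (adjusted p = 0.114).

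Inhba read 11.61, 11.60 and 11.59 in control EtOH, 10.93, 11.19 and 11.09 in control Dex, 12.04, 12.33 and 12.80 in dKO EtOH, and 12.02, 11.84 and 11.37 in dKO Dex. The dKO arrays were above the control arrays under each treatment, and the dKO groups spread more widely than the control groups. Inhba was higher in the dKO in EtOH (0.79 ± 0.19, adjusted p = 0.0113) and under Dex (0.68 ± 0.19, adjusted p = 0.029). Its Dex change passed the test in dKO (-0.65 ± 0.19, adjusted p = 0.045) and not in control (-0.53 ± 0.19, adjusted p = 0.0769), and these changes differed by -0.12 ± 0.27 (adjusted p = 0.83). The Dex call in dKO was lost without any 1 control EtOH array, control Dex replicate 1 or 2, dKO EtOH replicate 2 or 3, or dKO Dex replicate 2 or 3 (adjusted p from 0.053 to 0.161). Without the 3 arrays the Dex change in dKO was -1.05 (adjusted p = 0.0204) and the genotype difference in EtOH 1.20 (adjusted p = 0.00612). The genotype call under Dex was lost without control Dex replicate 1 or 3 or dKO Dex replicate 1 or 2 (adjusted p from 0.052 to 0.115). With equal array medians in place of quantile normalization, the genotype difference in EtOH was 0.53 and not called (adjusted p = 0.084). The Dex call in dKO and the genotype call under Dex were lost there too (adjusted p = 0.17 and 0.0517).

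**Figure D2:**
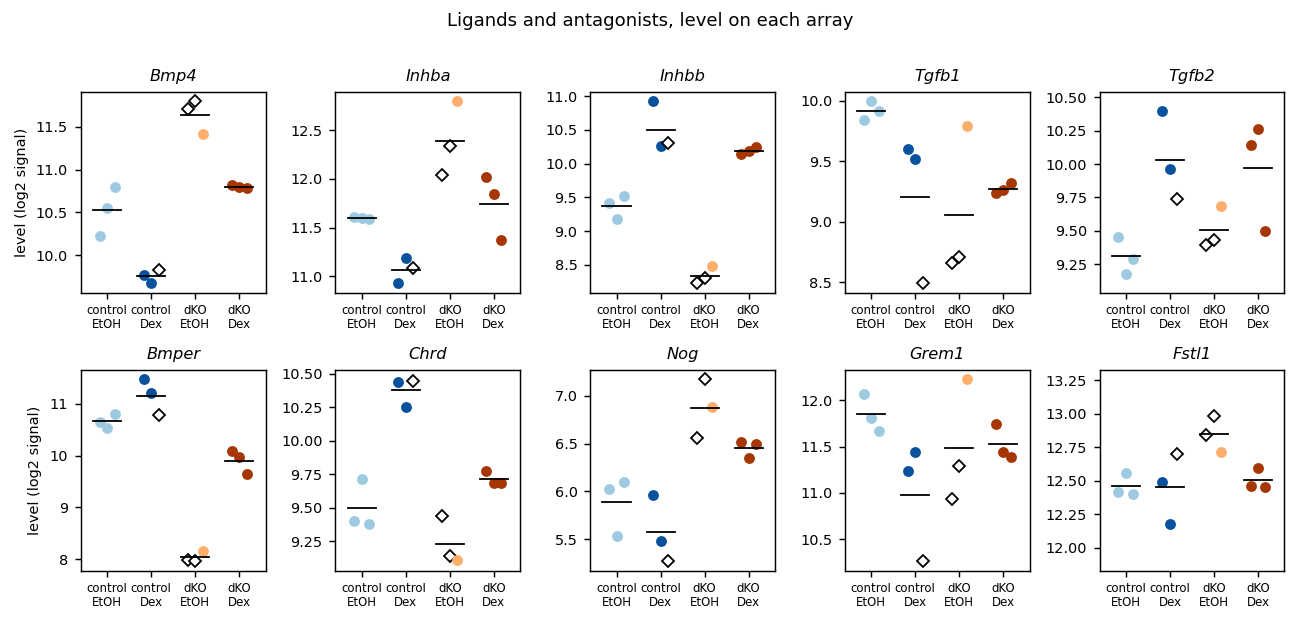
Level (log2 signal) of ligands and antagonists on each array by group, with 1 point per array, a line at the group mean and open diamonds for the 3 arrays that stood apart. Bmp4 is higher in both dKO groups and lower in both Dex groups, Bmper is near 8 in dKO EtOH and above 9.6 on the other arrays, and Tgfb1 and Grem1 are widely spread in control Dex and dKO EtOH.

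Of the TGF-beta ligands, Tgfb2 was called in 1 comparison, and Tgfb1 and Tgfb3 in none with all arrays. Tgfb2 read 9.46, 9.18 and 9.29 in control EtOH and 10.40, 9.96 and 9.74 in control Dex, and these groups did not overlap. It rose with Dex in control (0.72 ± 0.21, adjusted p = 0.0284), a call lost without control EtOH replicate 2 or 3 or control Dex replicate 1 or 2 (adjusted p from 0.0562 to 0.0979). In dKO, where it read 9.39, 9.43 and 9.69 in EtOH and 10.14, 10.27 and 9.50 after Dex, the groups overlapped and the test was not passed. Tgfb3 had group means from 10.46 to 10.63.

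Tgfb1, the TGF-beta most studied in fibroblast activation, read 9.84, 9.998 and 9.92 in control EtOH, 9.60, 9.52 and 8.49 in control Dex, 8.66, 8.71 and 9.79 in dKO EtOH, and 9.24, 9.26 and 9.32 in dKO Dex. The 3 arrays that stood apart were the 3 lowest of all 12 for this gene. With all arrays no comparison was called (Dex in control -0.72 ± 0.31, adjusted p = 0.139; genotype in EtOH -0.86 ± 0.31, adjusted p = 0.0615). Without them Tgfb1 was lower after Dex in control (-0.36 ± 0.09, adjusted p = 0.0197) and in dKO (-0.52 ± 0.11, adjusted p = 0.0256), and lower in the dKO under Dex (-0.29 ± 0.09, adjusted p = 0.044). For Dex in dKO the sign differed from the change over all arrays, which was 0.22 (adjusted p = 0.677).

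Gdf10, also known as BMP3B, was above background on 0 control arrays and on 2 of 3 arrays in each dKO group. It passed the filter on dim probes through the dKO arrays alone, so its p-values between genotypes carry that selection. Under Dex it was at least 1.502-fold higher in the dKO (adjusted p = 0.0342), and in EtOH the difference was not called (adjusted p = 0.0535). Without the 3 arrays the EtOH difference passed the test (adjusted p = 0.0332), but it then sets a single dKO EtOH array against a control group at background. The difference under Dex did not pass without any 1 control Dex array or without dKO Dex replicate 1 or 2 (adjusted p from 0.0537 to 0.115).

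Among the antagonists and extracellular modulators Bmper changed most, being 6.18-fold lower in the dKO in EtOH and rising with Dex there, while Chrd rose with Dex in both genotypes and Nog was above background on the dKO arrays alone. Of 9 genes 7 were tested. Dex changed 1 in control (14.3%, against 20.3% of all genes) and 2 in dKO (28.6%, against 14.6%). Between genotypes 3 differed in EtOH (42.9%, against 26.6%) and 4 under Dex (57.1%, against 19.7%).

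Bmper encodes a secreted protein with chordin-like domains that binds BMPs, including Bmp4. It read 10.65, 10.54 and 10.81 in control EtOH, 11.48, 11.21 and 10.78 in control Dex, 7.98, 7.96 and 8.16 in dKO EtOH, and 10.09, 9.97 and 9.64 in dKO Dex. All dKO arrays lay below all control arrays, and the dKO Dex arrays lay between dKO EtOH and control. In the dKO Bmper rose 3.63-fold with Dex (1.86 ± 0.17, adjusted p = 2.29e-05), against 0.49 in control, which was not called (adjusted p = 0.0664). It was lower in the dKO by -2.63 ± 0.17 in EtOH (adjusted p = 1.82e-06) and by -1.26 ± 0.17 under Dex (2.39-fold, adjusted p = 0.000354). Without the 3 arrays the Dex change in control was 0.68 (adjusted p = 0.0109).

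Chrd, which encodes the BMP-binding protein chordin, read 9.40, 9.72 and 9.38 in control EtOH, 10.44, 10.25 and 10.45 in control Dex, 9.44, 9.14 and 9.11 in dKO EtOH, and 9.77, 9.68 and 9.69 in dKO Dex. The control Dex arrays were the highest 3 of the 12. Chrd rose with Dex in control (0.88 ± 0.12, 1.84-fold, adjusted p = 0.000387) and in dKO (0.49 ± 0.12, 1.40-fold, adjusted p = 0.0223). Under Dex it was lower in the dKO (-0.67 ± 0.12, adjusted p = 0.00272), and the difference between the Dex changes was not called (-0.40 ± 0.17, adjusted p = 0.209). The dKO call was lost without dKO EtOH replicate 2 (0.44, adjusted p = 0.0888) and without any 1 of the dKO Dex replicates (adjusted p from 0.0568 to 0.077).

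Nog encodes noggin, which blocks the receptor-binding surface of BMPs. It read 6.03, 5.53 and 6.10 in control EtOH, 5.96, 5.48 and 5.27 in control Dex, 6.56, 7.17 and 6.88 in dKO EtOH, and 6.51, 6.35 and 6.49 in dKO Dex. It was above background on 0 of 6 control arrays and on 6 of 6 dKO arrays, so its difference is a bound. Nog was at least 1.59-fold higher in the dKO in EtOH (adjusted p = 0.00509) and at least 1.21-fold higher under Dex (adjusted p = 0.0111). It passed the filter on dim probes through the dKO arrays alone, so these p-values carry that selection.

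Grem1, which encodes the BMP antagonist gremlin, read 12.06, 11.81 and 11.67 in control EtOH, 11.23, 11.44 and 10.26 in control Dex, 10.94, 11.29 and 12.23 in dKO EtOH, and 11.74, 11.45 and 11.39 in dKO Dex. The 3 arrays that stood apart were among the 4 lowest, and no comparison was called with all arrays (Dex in control -0.87, adjusted p = 0.0921). Without them Grem1 was lower after Dex in control (-0.51, adjusted p = 0.0369). Its Dex change in dKO turned from 0.04 to -0.70 (adjusted p = 0.0559) and its genotype difference in EtOH from -0.36 to 0.38 (adjusted p = 0.221), neither called.

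The remaining modulators gave small differences or none that passed. Fstl1, a secreted follistatin-like glycoprotein, was higher in the dKO in EtOH (0.39 ± 0.13, adjusted p = 0.048). That call was lost without any 1 control EtOH or dKO Dex array, control Dex replicate 1, or dKO EtOH replicate 1 or 2 (adjusted p from 0.0565 to 0.163), and without the 3 arrays (0.26, adjusted p = 0.292). Bmp1, the protease that cleaves chordin and procollagen, was lower in the dKO under Dex (-0.34 ± 0.10, adjusted p = 0.0372). That call was lost without any 1 dKO Dex array, control EtOH replicate 2, or control Dex replicate 1 or 3 (adjusted p from 0.0532 to 0.114), and without the 3 arrays (-0.27, adjusted p = 0.0669). A further Bmp1 probe, tested as its own item, rose with Dex in control (0.41, adjusted p = 0.0336), where the change on the first probe was 0.07. Fst, which encodes follistatin, was called in no comparison, with group means from 12.21 to 12.38.

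Among the receptors, the TGF-beta co-receptor gene Tgfbr3 and the type II receptor gene Tgfbr2 were lower in the dKO under both treatments, and Tgfbr3 was higher after Dex in both genotypes. Of 10 receptor genes 7 were tested. Tgfbr3 encodes betaglycan, which presents TGF-beta2 to the signalling receptors and also binds inhibin. It read 8.39, 8.35 and 8.36 in control EtOH, 10.23, 9.89 and 9.60 in control Dex, 7.50, 7.80 and 7.75 in dKO EtOH, and 8.50, 8.69 and 8.55 in dKO Dex. The dKO Dex arrays lay just above control EtOH, so that all groups were apart from each other. Dex raised it 2.91-fold in control (1.54 ± 0.15, adjusted p = 2.15e-05) and 1.86-fold in dKO (0.89 ± 0.15, adjusted p = 0.00175). In the dKO it was lower by -0.68 ± 0.15 in EtOH (adjusted p = 0.00554) and by -1.33 ± 0.15 under Dex (adjusted p = 7.62e-05). The Dex change was smaller in the dKO by -0.65 ± 0.21, which was not called (adjusted p = 0.109).

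Tgfbr2 encodes the type II receptor that binds TGF-beta first. It read 12.43, 12.44 and 12.61 in control EtOH, 12.95, 12.78 and 12.41 in control Dex, 11.84, 11.94 and 12.10 in dKO EtOH, and 11.92, 12.15 and 11.85 in dKO Dex. Every dKO array lay below every control array. Tgfbr2 was lower in the dKO in EtOH (-0.54 ± 0.14, adjusted p = 0.0171) and under Dex (-0.74 ± 0.14, adjusted p = 0.00345), with no called Dex change in either genotype. In EtOH the call was lost without the 3 arrays (-0.40, adjusted p = 0.111) and without control EtOH replicate 3, dKO EtOH replicate 1 or dKO EtOH replicate 2 (adjusted p from 0.0535 to 0.0687).

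Acvrl1, which encodes the type I receptor ALK1 of endothelial cells, read 6.79, 6.75 and 6.38 in control EtOH, 6.34, 6.06 and 6.09 in control Dex, 6.77, 6.21 and 6.33 in dKO EtOH, and 6.63, 6.99 and 6.94 in dKO Dex. These levels were close to background, above which it stood on 1 of 3 control Dex arrays. Under Dex it was higher in the dKO (0.69 ± 0.17, adjusted p = 0.014), and the call was lost without control Dex replicate 2 and without dKO Dex replicate 2 or 3 (adjusted p from 0.051 to 0.0549). The type I receptor genes Tgfbr1, Bmpr1a and Acvr1 and the co-receptor gene Eng were called in no comparison, with group means from 10.93 to 11.52 for Tgfbr1, 10.16 to 10.40 for Bmpr1a, 10.49 to 10.66 for Acvr1 and 9.08 to 9.29 for Eng. Without the 3 arrays Tgfbr1 was higher after Dex in control (0.43, adjusted p = 0.0486).

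**Figure D3:**
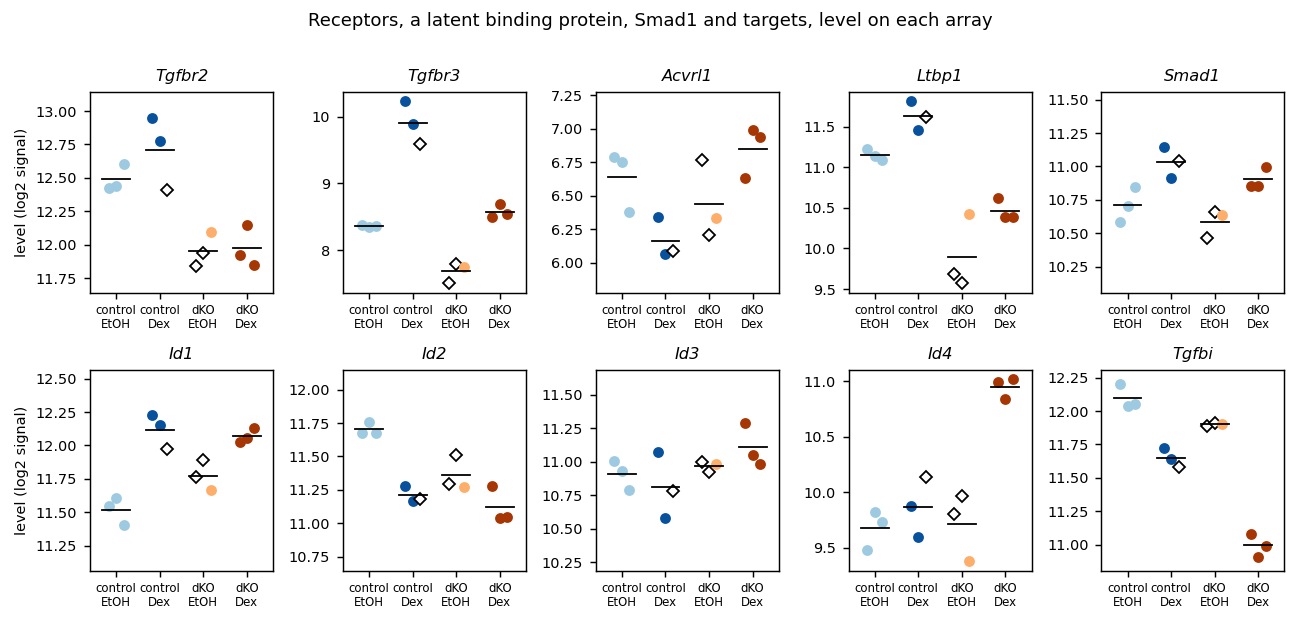
Level (log2 signal) of receptors, Ltbp1, Smad1 and targets on each array by group, with 1 point per array, a line at the group mean and open diamonds for the 3 arrays that stood apart. Tgfbr3 is highest in control Dex, Ltbp1 and Tgfbr2 are lower in both dKO groups, and Id4 is higher and Tgfbi lower in dKO Dex than in any other group.

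Of the 4 latent TGF-beta binding proteins, which tether latent TGF-beta to fibrillin-rich matrix, Ltbp1 was lower in the dKO under both treatments and the others were called in no comparison. Ltbp1 read 11.22, 11.14 and 11.09 in control EtOH, 11.81, 11.46 and 11.62 in control Dex, 9.69, 9.57 and 10.42 in dKO EtOH, and 10.62, 10.39 and 10.38 in dKO Dex. No dKO array reached the lowest control array. It was 2.39-fold lower in EtOH (-1.26 ± 0.19, adjusted p = 0.000617) and 2.24-fold lower under Dex (-1.17 ± 0.19, adjusted p = 0.00118). Without the 3 arrays the EtOH difference was -0.73 (adjusted p = 0.0152), and the Dex change in dKO, not called, went from 0.57 to 0.05. The Dex change in control was 0.48 (adjusted p = 0.102) with all arrays and was called without the 3 arrays (0.48, adjusted p = 0.0249). A further Ltbp1 probe, above background on 4 arrays, differed between genotypes by -0.01 in EtOH and -0.23 under Dex and was called in no comparison.

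Ltbp2 was near background (group means 5.80 to 6.60), and its genotype difference under Dex was 0.81 ± 0.27 (adjusted p = 0.0588) and, without the 3 arrays, 0.58 (adjusted p = 0.0493). Ltbp4 read 8.53, 8.44 and 8.46 in dKO Dex, just above control Dex replicate 1 at 8.42 and above the other arrays. No comparison passed the test (genotype under Dex 0.68 ± 0.25, adjusted p = 0.0839). On a further Ltbp4 probe, also called in no comparison, dKO EtOH replicate 3 read 8.42, above the dKO Dex arrays at 8.06, 8.12 and 7.99. Ltbp3 had group means from 11.37 to 11.59. A further, dimmer probe of it went the opposite way in EtOH between genotypes (0.79 against -0.19) and with Dex in control (0.75 against -0.22). On that probe the difference of the Dex changes was -1.48 (adjusted p = 0.0821), against 0.22 on the first. Neither Ltbp3 probe was called in any comparison.

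Of the 4 Smad genes tested, 1 was called, in 1 comparison, Dex in control (25%, against 20.3% of all genes). Smad1, the BMP-activated Smad, read 10.59, 10.70 and 10.84 in control EtOH, 11.15, 10.92 and 11.04 in control Dex, 10.47, 10.66 and 10.64 in dKO EtOH, and 10.86, 10.85 and 10.998 in dKO Dex. Each Dex group lay above its EtOH group. Smad1 rose with Dex in control (0.32 ± 0.10, adjusted p = 0.0489), and the change in dKO did not pass (0.31 ± 0.10, adjusted p = 0.0663), and the changes differed by -0.01 ± 0.15. A further Smad1 probe rose with Dex in both genotypes, by 0.38 (adjusted p = 0.0157) and 0.36 (adjusted p = 0.0253), where every probe was tested as its own item. The control call on the first probe was lost without the 3 arrays (adjusted p = 0.0774) and without control EtOH replicate 1 or 2, control Dex replicate 1 or 3, dKO EtOH replicate 2, or any 1 dKO Dex array (adjusted p from 0.0572 to 0.177). Smad3, Smad5 and the inhibitory Smad6 were called in no comparison, with group means from 8.26 to 8.87, 9.66 to 9.94 and 10.34 to 10.44. A further Smad5 probe was higher in the dKO in EtOH (0.45, adjusted p = 0.0412).

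Among the targets, Tgfbi was lower after Dex in both genotypes, Id1 rose and Id2 fell with Dex in control, and Id4 was highest in dKO Dex. The Id genes encode helix-loop-helix proteins that inhibit differentiation factors and are induced by BMPs. Id4 read 9.48, 9.82 and 9.73 in control EtOH, 9.88, 9.60 and 10.13 in control Dex, 9.80, 9.96 and 9.38 in dKO EtOH, and 10.99, 10.84 and 11.02 in dKO Dex. The first 3 groups overlapped each other, and all dKO Dex arrays lay above them. Id4 rose 2.35-fold with Dex in dKO (1.23 ± 0.17, adjusted p = 0.000524) and was 2.11-fold higher in the dKO under Dex (1.08 ± 0.17, adjusted p = 0.000959). In control its Dex change was 0.19 (adjusted p = 0.478).

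Id1 read 11.55, 11.60 and 11.40 in control EtOH, 12.23, 12.15 and 11.97 in control Dex, 11.76, 11.89 and 11.67 in dKO EtOH, and 12.03, 12.06 and 12.13 in dKO Dex. Both Dex groups lay above the EtOH groups. Id1 rose with Dex in control (0.60 ± 0.10, adjusted p = 0.00148), and the change in dKO did not pass (0.30 ± 0.10, adjusted p = 0.0744), and the difference of these changes was not called (-0.30 ± 0.14, adjusted p = 0.237).

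Id2 read 11.68, 11.76 and 11.67 in control EtOH, 11.28, 11.17 and 11.18 in control Dex, 11.30, 11.51 and 11.27 in dKO EtOH, and 11.28, 11.04 and 11.05 in dKO Dex. Control EtOH was above all other groups. Id2 fell with Dex in control (-0.49 ± 0.10, adjusted p = 0.00525) and was lower in the dKO in EtOH (-0.34 ± 0.10, adjusted p = 0.0291). The genotype call was lost without the 3 arrays (-0.43, adjusted p = 0.0549), without any 1 control EtOH replicate, and without dKO EtOH replicate 1 or 3 (adjusted p from 0.0574 to 0.0955). A further Id2 probe, tested as its own item, was called in neither comparison. It changed by -0.61 with Dex in control (adjusted p = 0.0975) and by -0.26 between genotypes in EtOH (adjusted p = 0.423). Id3 was called in no comparison, with group means from 10.81 to 11.11.

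Tgfbi encodes a collagen-binding matrix protein named for its induction by TGF-beta. It read 12.20, 12.04 and 12.05 in control EtOH, 11.72, 11.64 and 11.58 in control Dex, 11.89, 11.91 and 11.90 in dKO EtOH, and 11.08, 10.91 and 10.99 in dKO Dex. The groups were all apart, with dKO Dex lowest. Tgfbi fell with Dex in control (-0.45 ± 0.09, adjusted p = 0.00367) and in dKO (-0.91 ± 0.09, adjusted p = 3.52e-05), and was lower in the dKO under Dex (-0.65 ± 0.09, adjusted p = 0.000321). The Dex changes differed by -0.46 ± 0.12, which was not called (adjusted p = 0.0756). On a further Tgfbi probe, tested as its own item, this difference was -0.999 (adjusted p = 0.0306), with Dex changes of -0.20 in control (adjusted p = 0.337) and -1.20 in dKO (adjusted p = 0.000132).

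The Dex change differed between genotypes for Bmper and Id4, both with a greater rise in the dKO. For Bmper the difference was 1.37 ± 0.24 (95% interval 0.84 to 1.90, adjusted p = 0.0228), and the dKO started from a lower EtOH level. For Id4 it was 1.04 ± 0.24 (95% interval 0.51 to 1.57, adjusted p = 0.0491), with EtOH levels that overlapped between genotypes. The Bmper call was lost without the 3 arrays (1.05, adjusted p = 0.0985) and without control EtOH replicate 1 or 3, dKO EtOH replicate 1 or 2, or dKO Dex replicate 1 or 2 (adjusted p from 0.0536 to 0.0724). The Id4 call was kept without the 3 arrays (1.51, adjusted p = 0.0192) but was lost without any 1 array other than control Dex replicate 3 and dKO EtOH replicate 3 (adjusted p from 0.0632 to 0.115).

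**Figure D4:**
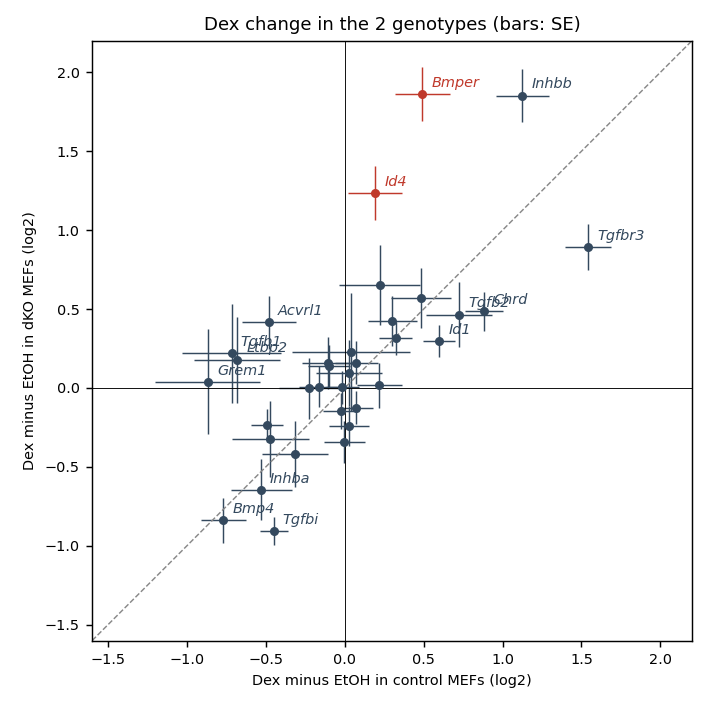
Dex change (log2) of each tested member in control (x axis) against dKO (y axis), with bars for the SE and a dashed line where both changes are equal. Bmper and Id4, in red, are the members whose change differed between genotypes, by 1.37 and 1.04.

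The 3 arrays that stood apart moved a few members more than the others. Tgfb1, Grem1, Ltbp1, Ltbp2, Smad3 and Gdf10 shifted by more than 0.5 for Dex in dKO and for genotype in EtOH. For the difference of the Dex changes these members shifted by more than 0.5 too, as did Ltbp3 (0.22 to -0.40), Ltbp4 (0.43 to -0.26) and Smad6 (0.07 to -0.50), none of them called either way. The number of members called without these arrays is not given, because dKO EtOH is then a single array.

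**Figure D5:**
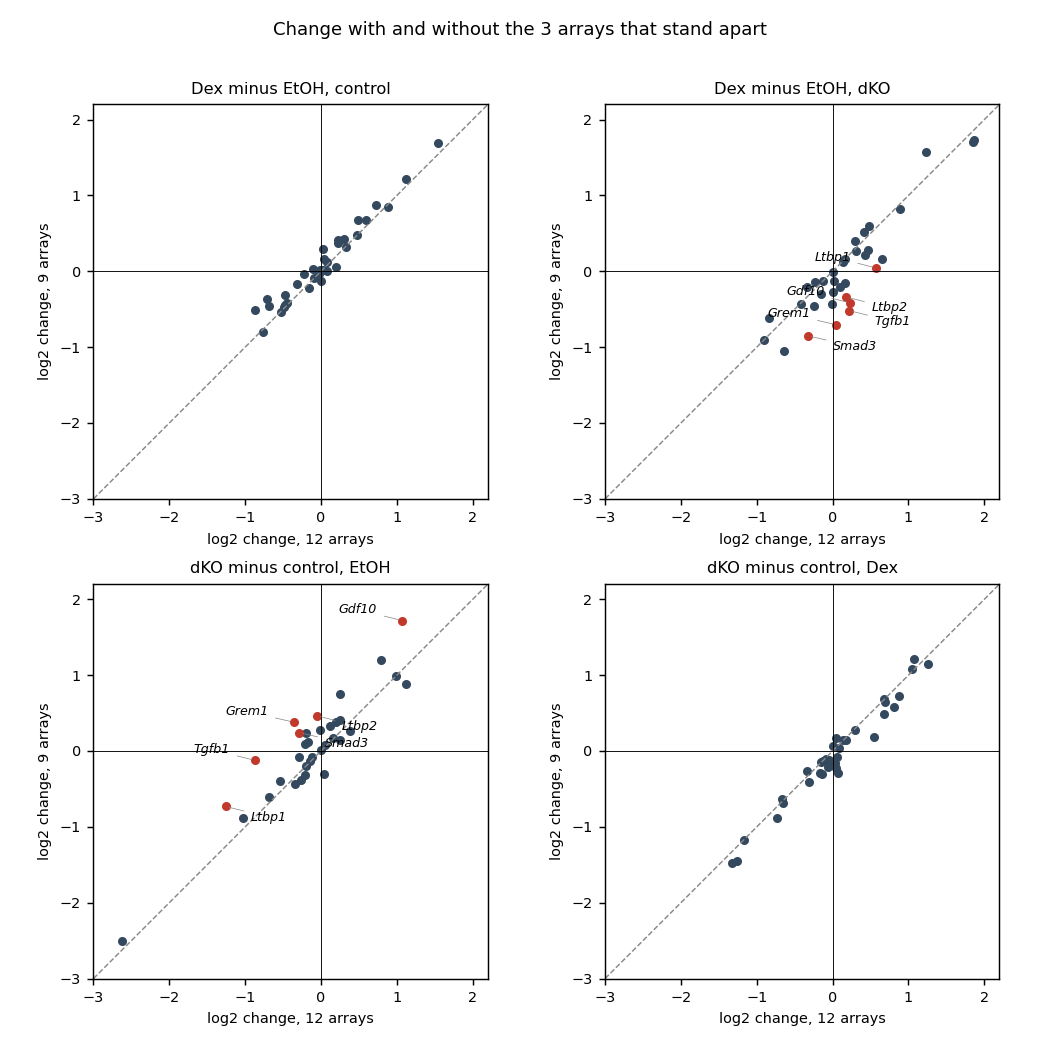
Change (log2) of each tested member over 12 arrays (x axis) and over the 9 arrays left without the 3 that stood apart (y axis), by comparison, with equality dashed and red points where the values differ by more than 0.5. Members lie near the line for Dex in control and for genotype under Dex, and Tgfb1 and Grem1 lie farthest from it where dKO EtOH enters.

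Of 102 further genes of the pathway 53 were tested. Dex changed 12 in control (22.6%, 5 higher and 7 lower, against 20.3% of all genes) and 10 in dKO (18.9%, 7 higher and 3 lower, against 14.6%). Between genotypes 15 differed in EtOH (28.3%, 9 higher and 6 lower in the dKO, against 26.6%) and 12 under Dex (22.6%, 6 higher and 6 lower, against 19.7%), all shares near those of all genes. The Dex change differed between genotypes for 0 of them by limma's adjusted p, against 2.29% of all genes. By limma's unadjusted p 16 were under 0.05. The share of all genes under that threshold was not obtained, so the count cannot be read as a result about these genes. The named genes are the up to 3 with the smallest p in each class. Their calls were not checked without single arrays, without the 3 arrays or under other processing.

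Of 4 further ligands tested, Bmp8a, at background in both EtOH groups, was at least 5.04-fold higher after Dex in control (adjusted p = 9.13e-07) and at least 3.74-fold higher in dKO (adjusted p = 2.68e-06). Bmp8a passed the filter on dim probes through the Dex arrays alone, so these p-values carry that selection. Lefty1, which encodes an inhibitor of Nodal signalling, was higher in the dKO by 0.92 ± 0.11 in EtOH (adjusted p = 9.2e-05) and 1.46 ± 0.11 under Dex (adjusted p = 3.36e-06), and fell with Dex in control (-0.60, adjusted p = 0.00182). Gdf3, a ligand close to Nodal in function, was at least 1.20-fold lower in the dKO in EtOH (adjusted p = 0.000295), where it was at background.

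Of 15 further antagonists and modulators tested, Dcn, which encodes the TGF-beta-binding proteoglycan decorin, fell with Dex in control (-1.28 ± 0.16, adjusted p = 0.000197) and was lower in the dKO in EtOH (-0.79, adjusted p = 0.00449). Nbl1, a BMP antagonist of the DAN family, rose with Dex in control (0.89 ± 0.12, adjusted p = 0.000239) and dKO (0.64, adjusted p = 0.00363). Nrros, which encodes a protein that anchors latent TGF-beta on macrophages and microglia, fell with Dex in control (-0.62, adjusted p = 0.0353) and was lower in the dKO in EtOH (-1.07 ± 0.19, adjusted p = 0.00158) and under Dex (-0.59, adjusted p = 0.0464).

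Among 17 further targets tested, Hey1, a BMP- and Notch-responsive repressor, was higher in the dKO by 1.82 ± 0.11 in EtOH (adjusted p = 9.16e-07) and 1.92 ± 0.11 under Dex (adjusted p = 4.65e-07). Msx1, a BMP-responsive homeobox gene at background in both control groups, was at least 2.79-fold higher in EtOH (adjusted p = 3.9e-06) and at least 2.17-fold higher under Dex (adjusted p = 5.03e-06). Msx1 passed the filter on dim probes through the dKO arrays alone, so these p-values carry that selection. Lox, which encodes lysyl oxidase, a collagen crosslinker, rose with Dex in control (1.22 ± 0.11, adjusted p = 1.7e-05) and in dKO (0.56, adjusted p = 0.00587). Of 16 further intracellular genes, Tob1, an antiproliferative protein that binds Smads, was higher in the dKO in EtOH (0.72, adjusted p = 0.00408). Rnf111, a ubiquitin ligase that removes Smad repressors, fell with Dex in dKO to background (adjusted p = 0.0257), and the Smad corepressor gene Tgif1 fell with Dex in control (-0.41, adjusted p = 0.0409). Neither of the 2 further receptors tested was called in any comparison.

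Markers of other cell types differed between genotypes together with these genes, and their part in the genotype results was not tested. In bulk RNA, fewer cells of a type and less RNA per cell cannot be told apart. Among all genes 15.8% were called lower in the dKO in EtOH and 9.81% under Dex, and 10.7% and 9.89% higher. Macrophage markers, of which 9 of 13 were tested, had a summed level of 16.57 to 16.76 in control EtOH, 16.41 to 16.58 in control Dex, 15.98 to 16.41 in dKO EtOH and 15.91 to 15.92 in dKO Dex, and 8 of 9 were lower in the dKO in EtOH and 7 of 9 under Dex. Ptprc and Itgam, also on the macrophage list, were at background. Mesothelial markers, 3 of 5 tested, summed to 9.96 to 10.01 in control EtOH, 10.41 to 10.74 in control Dex, 7.30 to 7.58 in dKO EtOH and 7.97 to 8.08 in dKO Dex, with 2 of 3 lower in the dKO in EtOH and 3 of 3 under Dex and Msln and Lrrn4 at background. Wt1 was lower in the dKO by -3.93 in EtOH (adjusted p = 1.62e-08) and -3.46 under Dex (adjusted p = 1.96e-08). These values stand beside Bmper, Ltbp1, Tgfbr2, Tgfbr3 and Nrros, which were also lower in the dKO.

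Endothelial markers, 4 of 12 tested, summed to 10.57 to 10.83 in control EtOH, 10.82 to 11.31 in control Dex, 9.58 to 9.97 in dKO EtOH and 10.20 to 10.34 in dKO Dex, with 3 of 4 lower in the dKO in EtOH and 2 of 4 under Dex. Pecam1, Cdh5, Kdr, Tek, Tie1, Esam and Erg were at background. Cartilage and bone markers, 4 of 8 tested, summed to 8.63 to 8.87 in control EtOH, 8.28 to 8.54 in control Dex, 10.25 to 10.78 in dKO EtOH and 9.87 to 10.05 in dKO Dex, with 3 of 4 higher in the dKO under each treatment and Acan, Matn1 and Ibsp at background. These values stand beside Bmp4, Nog, Hey1 and Msx1, which were also higher in the dKO. Fibroblast markers were higher in the dKO in EtOH for 7 of 12 genes, Pdgfra (0.95) and Thy1 (1.01) among them, and lower for 1. Some markers also moved with Dex: in control 3 of 9 macrophage markers were higher and 5 lower, and 4 of 7 smooth muscle markers were higher in each genotype. Among all genes 8.85% were called higher and 11.4% lower with Dex in control, and 8.62% and 5.99% in dKO. Of the endothelial markers 2 of 4 were higher after Dex in each genotype, Emcn by 1.09 in control and 1.86 in dKO, and Flt1 by 1.02 and 1.01. The lowest change among these 4 was -0.62 in control and -0.27 in dKO, and 0 were called lower. Of the mesothelial markers 2 of 3 were higher after Dex in control and 1 of 3 in dKO. These values stand beside Inhbb, Tgfbr3 and Chrd, which rose with Dex in both genotypes, and their part in those results was not tested. Of 2 neural markers tested, 1 was higher and 1 lower after Dex in each genotype, and 1 was higher in the dKO under each treatment. Of 6 epithelial markers 0 were tested, since 5 had a probe and none was above background on enough arrays.

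Some values depended on how the arrays were scaled to each other. With equal medians in place of quantile normalization, the median of all genes was -0.15 for Dex in control, 0.14 for Dex in dKO, -0.25 for genotype in EtOH and 0.30 for the difference of the Dex changes. The members' calls then split into 4 higher and 4 lower for Dex in control, 7 and 2 for Dex in dKO, and 3 and 13 for genotype in EtOH. Over all genes the calls split into 482 higher and 1312 lower, 871 and 343, and 518 and 2589. The balance of directions depended on the scaling, while the sign of each of the 42 called changes was kept. Some calls were lost with equal medians. They were Smad1 and Tgfb2 for Dex in control, Inhba for Dex in dKO, Fstl1 and Inhba for genotype in EtOH, and Bmp1 and Inhba for genotype under Dex.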

How the data were processed

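Expression was measured on 12 Illumina bead arrays. Per the file headers, the deposited intensities are mean bead signals of each probe before normalization between arrays, and a detection p-value against negative control beads was deposited beside each. The submitters' processing notes name GenomeStudio. The processed intensities of a second deposited table, whose making is not given in the sources at hand, served as an alternative.

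Signals were background corrected with nec in limma 3.58.1 (R 4.3.3) from the detection p-values (offset 16), quantile normalized and brought to log2. Symbols came from the platform annotation, updated through Entrez identifiers (23962 of 23978 named probes). A probe was kept at a detection p under 0.01 on at least 3 of 12 arrays (11382 of 25697 probes), and a gene was read from its kept probe with the highest mean (8420 genes). A gene at background where it is low thus passed only through the groups where it is high, as Nog and Gdf10 did among the called members. Among the members' probes 47 were kept, and 11 members had further kept probes. One mean per group was fitted over all arrays with moderated variances, and p-values were adjusted by Benjamini-Hochberg over all genes of a comparison. Where a gene was at background on every array of 1 group, its fold is a bound, set by the brighter group's mean and, on each dim array, the higher of the gene's own value and the lowest above-background level (6.09 to 6.35). The fit was tested on simulated data.

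The members, the gene lists and the tests were chosen with earlier results of these data known. Members called in a comparison are named with values, the others with their levels, and further pathway genes are named where they had the up to 3 smallest p-values of their class among called genes. Residuals of arrays sharing a replicate number correlated between -0.18 and 0.14, so the numbers were not taken as pairs. Alternatives covered background correction, scaling, offset, filter, probe choice, variance model, array weights, blocks and single arrays. Leaving out the 3 arrays that stood apart was chosen after seeing the data.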

Additional observations from a re-analysis of the deposited data

Results flagged for a closer look

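The Dex change differed between the genotypes, by the test of the difference itself, for Bmper and Id4. For Bmper it was greater in the dKO by 1.37 ± 0.24 (log2, limma, adjusted p = 0.0228, n = 3 arrays per group). For Id4 it was greater by 1.04 ± 0.24 (adjusted p = 0.0491). All 3 Dex arrays of the dKO lay above its 3 EtOH arrays for both genes. In control the Dex and EtOH arrays overlapped, with a change of 0.49 for Bmper and 0.19 for Id4, neither called. Both calls were lost under some alternatives, Bmper in 9 of 24 and Id4 in 15 of 24.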

How the results depend on the processing

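Of 42 called changes of members, 27 were called under every alternative run, 15 lost their call under at least 1 and 0 changed sign. The number of members called moved by more than 1.5 times under these settings. With array weights 18 were called for Dex in control, 18 for Dex in dKO, 18 for genotype in EtOH and 9 for the difference of Dex changes. Array weights also called 2818, 3160, 4146 and 1774 of all 8420 genes in these comparisons, against 1707, 1230, 2236 and 193 in the main run. With median scaling 16 members were called for genotype in EtOH, and 3107 of all genes. For the difference of Dex changes 4 members were called in the deposited processed table (323 of all genes) and 4 with no background correction (319 of all genes). The number was 1 with a detection p of 0.05 (129 of 9544 genes) and 1 with no filter (59 of 16593 genes). It was 0 with the replicate number as a block (34 of all genes) and 0 with a replicate block within genotype (32 of all genes). For the difference of Dex changes the number also fell without the 3 arrays that stood apart, where dKO EtOH is a single array. The cause was not tested. Leaving out 1 array at a time gave 7 to 13 members called for Dex in control, 6 to 10 for Dex in dKO, 7 to 11 for genotype in EtOH, 9 to 15 for genotype under Dex and 0 to 4 for the difference of Dex changes. Over all genes these runs called 1221 to 1984, 716 to 2210, 1449 to 3124, 1154 to 1945 and 34 to 1203. With the replicate block the other counts were 8, 7, 8 and 10, and over all genes 1433, 912, 1795 and 1388. The replicate numbers are not known to pair the arrays. The share of called genes that were higher moved under median scaling from 43.6% to 26.9% for Dex in control, from 59% to 71.7% for Dex in dKO, from 40.4% to 16.7% for genotype in EtOH and from 56% to 85.5% for the difference. The calls lost most often were those of Inhba for Dex in dKO, Smad1 for Dex in control, Fstl1 and Id2 for genotype in EtOH, Bmp1 for genotype under Dex, and Id4 and Bmper for the difference. Members near background (Gdf10, Nog, Acvrl1, Ltbp2) carry signals too dim to give more than bounds or coarse differences.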
